A study of Mus musculus with 18 samples.

Results

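The 9 genes described here lie on mouse chromosome 13, the chromosome that carries Pitx1, and were listed because their levels differed between Pitx1 knockout (KO) and wild-type (WT) hindlimbs. They are the zinc finger genes Zfp429, Zfp708 and Zfp458, the gene Gpr137b and its copy Gpr137b-ps, the enzyme genes Gpx6 and Fbp2, the kinesin gene Kif27 and the endocytosis gene Amph. They are 9 of the 23919 genes kept from the tables, of which 898 were matched to chromosome 13. They were chosen by their KO against WT values in these libraries, so these values are given below as a description with no test. Across all genes tested, 4 of the 9 passed an adjusted p of 0.05 for KO against WT in at least 1 stage (Zfp429, Gpr137b-ps, Gpx6 and Kif27), while the other 5 passed at none, so that "changed" is a name for the choice and not a call for every one of them.

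Messenger RNA was sequenced from Pitx1 KO and WT mouse embryos of the strain C57BL/6, per the labels, at the embryonic stages E9.5, E11.5 and E12.5. The groups were E9.5 KO, E9.5 WT, E11.5 KO, E11.5 WT, E12.5 KO and E12.5 WT, with 3 libraries in each of the 6 groups. The E9.5 tissue was the field of the future hindlimb together with trunk, and the later tissue was the hindlimb. The labels give the genotype as homozygous loss of Pitx1 and say neither which part of the gene is removed, how and in which strain the allele was made, nor whether embryos were pooled or came from separate litters, so every p-value below measures the spread between these libraries only.

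Pitx1 encodes a homeodomain transcription factor that gives the hindlimb its identity. Genes on the same chromosome are inherited together more often the closer they lie, and a chromosome chosen for a mutant allele carries its other sequence variants along with that allele. The tables hold no alleles, and loss of Pitx1 and any other sequence difference carried on the mutant chromosome cannot be told apart in this design. In bulk tissue, fewer cells of a type and less RNA per cell cannot be told apart either.

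Libraries held between 14361919 and 60672151 fragments, and at E9.5 the KO libraries were the shallower ones, with 14361919 to 18553033 fragments against 20673065 to 40020110 in WT. Pitx1 RNA was still counted in KO tissue, at 41.1% of the WT mean at E9.5, 16.8% at E11.5 and 13.2% at E12.5, and it was lower in all KO than in all WT libraries of each stage. At E12.5 Pitx1 itself did not pass (log2 fold change -2.92 ± 0.40 SE, edgeR adjusted p = 0.125), so a gene that did not pass there can still differ. WT replicate 3 of that stage stood at 49.4% of the WT mean for Pitx1, against 126.3% and 124.4% in the other WT libraries. The hindlimb T-box gene Tbx4 ranged between 16.1 and 69.2 RPKM (reads scaled to gene length and library depth) and the forelimb gene Tbx5 between 0.114 and 1.40 RPKM over the 18 libraries, and Tbx4 was the higher in each. Markers of other cells moved with genotype: the summed level of 25 muscle markers was 26.6 to 42.4 RPKM in E11.5 KO against 70.2 to 238.2 RPKM in E11.5 WT libraries, and that of 10 cartilage markers was 141.5 to 207.9 RPKM against 259.3 to 366.3 RPKM.

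One library stood apart for several of the 9 genes. In E11.5 KO replicate 2, Zfp429 stood at 44.5% of the E11.5 WT mean, against 3.38% and 6.80% in the other KO libraries of that stage. In the same library Gpr137b-ps stood at 69.7%, against 17.5% and 17.8%, and Gpr137b at 143.2%, against 213.7% and 222.2%. Its Pitx1 level, 14.4% of the WT mean, was the lowest of the 3, so the library did not go against its label. Values that rest on it are given with and without it.

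At E9.5, 2 of the 9 genes passed the threshold, both lower in KO, where 0.0217% of all genes tested passed. At E11.5, 2 passed, Gpx6 higher and Kif27 lower in KO, where 1.96% of all genes passed. At E12.5, 1 passed, Zfp429, lower in KO, where 0.0138% of all genes passed. In numbers of genes whose KO and WT libraries did not overlap, the 9 gave 7 at E9.5, where 9.29% of all genes did so (4.7% higher and 4.59% lower in KO), 6 at E11.5, where 27.7% did (13.7% higher and 14.0% lower), and 7 at E12.5, where 21.7% did (11.4% higher and 10.3% lower). Since these contrasts chose the genes, nothing is read from those counts. The calls rested on few libraries: both E9.5 calls were lost whichever of the 6 libraries of that stage was left out, the Gpx6 call at E11.5 without KO replicate 3, and the Kif27 call without KO replicate 2 or 3 or WT replicate 1 or 2, while the Zfp429 call at E12.5 held without each of the 6. With the tool DESeq2, 4 of the 9 passed at E9.5, 5 at E11.5 and 6 at E12.5, and each of the 9 passed in at least 1 stage. Among all genes, DESeq2 called 19 of 13804 at E9.5, 1312 of 14601 at E11.5 and 441 of 14494 at E12.5. Zfp429, Gpx6 and Kif27 did not overlap at any of the 3 stages, and 8 of the 9 kept the sign of the difference across the stages, the exception being Fbp2. These counts were not made over all genes, and nothing is read from them. Nearest to the threshold were Zfp429 at E9.5 on the inside and Gpr137b at E11.5 on the outside, whose values follow.

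**Figure D1:**
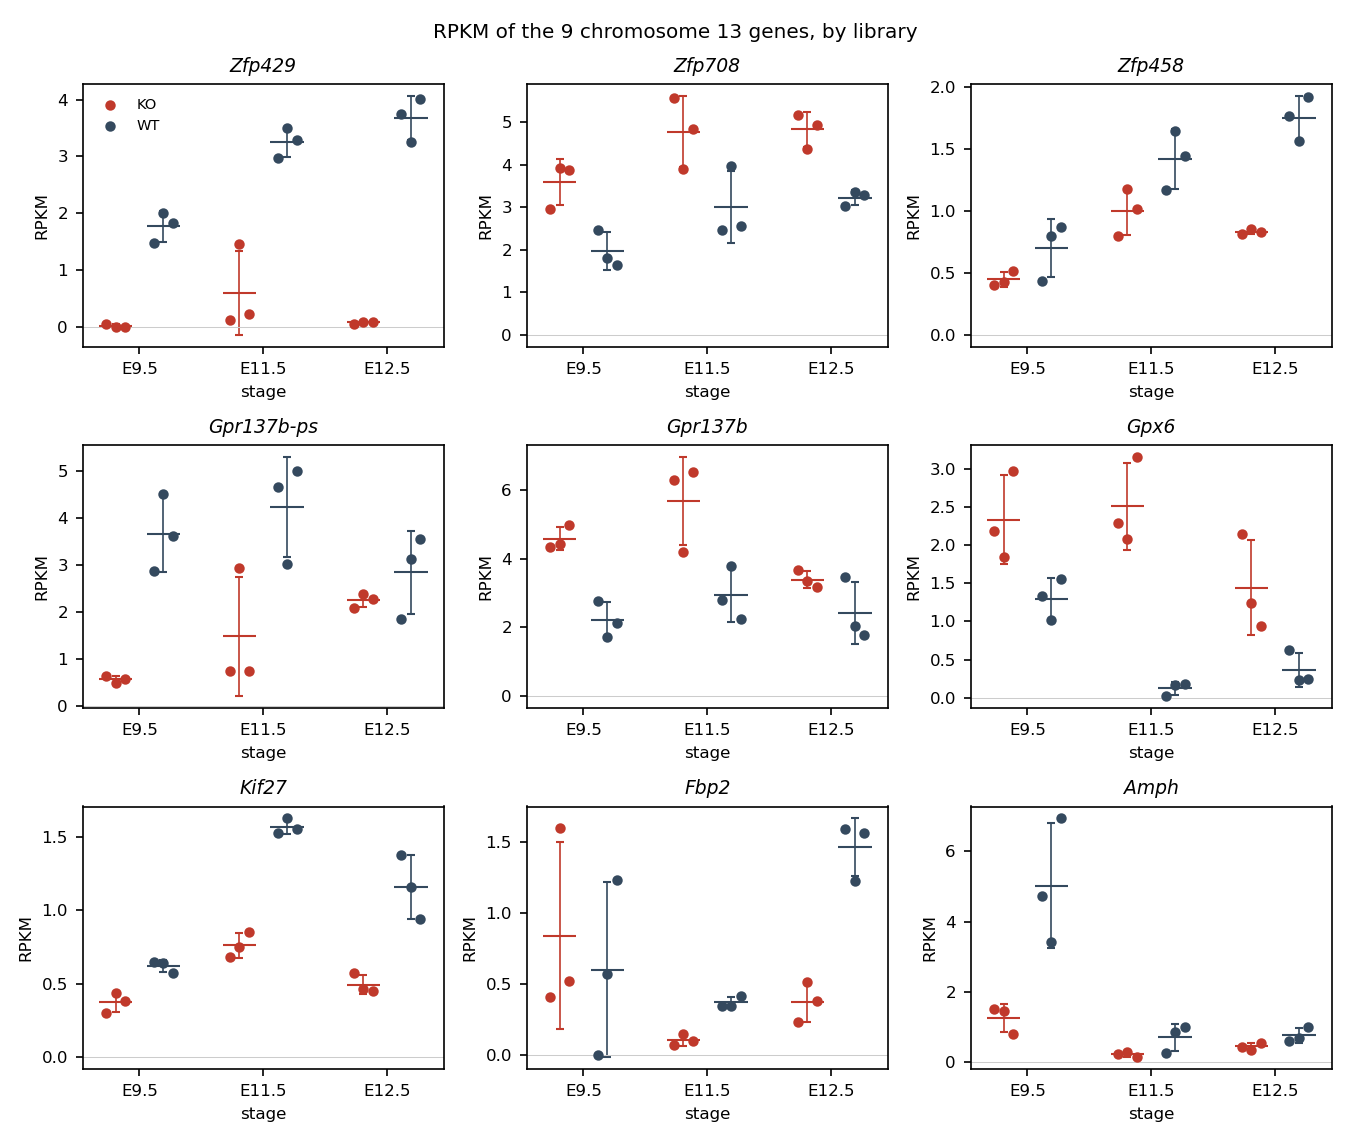
RPKM of each of the 9 genes (vertical axis, linear, its own scale in each panel) by stage, with KO libraries in red left of WT libraries in dark blue. Points are libraries, horizontal lines group means and bars 1 SD (n = 3 each). Zfp429 is near 0 in all KO libraries but 1 at E11.5, which stands at 1.45 RPKM, and Gpx6 is above every WT library of its stage in all KO libraries.

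Zfp429, Zfp708 and Zfp458 belong to a cluster of Krüppel-associated box (KRAB) zinc finger genes. Proteins of this family bind DNA through arrays of zinc fingers and recruit the co-repressor Trim28, which silences transposable elements and some genes. The mouse cluster also holds Rsl1, known for its repression of male-specific liver genes, and its members resemble each other closely. In transcript sequence, 25% of the 50-base words of Zfp429 also occur in another gene, chiefly Rsl1 and Zfp456, against 6.3% for Zfp708 and 2.3% for Zfp458, leaving out genes that overlap them. Zfp708 overlaps Rslcan18 and 3 predicted genes in the annotation, and its fragment values were not whole in 14 of 18 libraries, while those of the other 8 genes were whole in all 18. Its level is therefore uncertain to the extent that shared fragments were divided between genes.

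Promoter windows of the 3 zinc finger genes are shown because they share a sequence with most of the other zinc finger genes of the chromosome. The motif TGGGA and TGTAG with 2 bases of any kind between, whose letters were picked after looking at these promoters and which resembles the element bound by ZNF143, was searched on both strands of the 250 bases before each annotated start. It was found once in each of the 3 genes (in 1 of 2 starts of Zfp708) and in none of Gpx6, Kif27, Fbp2 and Amph. It was in 64.286% of 28 other Zfp genes of chromosome 13, in 16.369% of 336 genes with a Zfp number and in 1.628% of 27025 genes with a promoter sequence. The windows are read from RefSeq promoters of GRCm38.p6, each 5′ to 3′ on the minus strand, with the motif in capitals. They lie at chr13:67399783-67399884 for Zfp429, chr13:67081546-67081643 for Zfp708 and chr13:67269117-67269218 for Zfp458, and the motif begins 72, 53 and 179 bases before the start in that order.
Zfp429: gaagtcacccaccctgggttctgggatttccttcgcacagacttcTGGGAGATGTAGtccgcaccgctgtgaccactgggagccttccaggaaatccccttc
Zfp708: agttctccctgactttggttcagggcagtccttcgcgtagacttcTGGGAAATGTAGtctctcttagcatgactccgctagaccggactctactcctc
Zfp458: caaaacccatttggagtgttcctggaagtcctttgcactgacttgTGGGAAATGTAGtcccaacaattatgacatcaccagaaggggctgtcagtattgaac

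The letters TAATCC, the core bound by bicoid-type homeodomains such as that of Pitx1, were searched in the same way. Among the 7 genes with a promoter sequence they were found once, 121 bases before the same start of Zfp708, where 7.212% of all genes with a promoter hold them. That window of Zfp708, chr13:67081616-67081711 of GRCm38.p6 on the minus strand, overlaps the one above and has these letters in capitals. A match is only a description of the sequence, and no binding was measured here.
Zfp708: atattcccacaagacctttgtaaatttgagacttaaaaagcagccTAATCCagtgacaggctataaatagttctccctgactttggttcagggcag

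Zfp429 was almost missing from 8 of the 9 KO libraries. At E9.5 the KO libraries held 2, 0 and 0 fragments, while every WT library held at least 82, which is 0.0538, 0 and 0 RPKM against 1.47, 2.0 and 1.82 RPKM. Relative to depth, WT held 83.2 times the KO fragments, with a 95% exact interval of 22.8 to 690.6 that covers counting error only. At E12.5 the KO libraries held 0.0458, 0.0856 and 0.0907 RPKM, against 3.75, 3.25 and 4.01 RPKM in WT, a log2 fold change of -5.57 ± 0.30 (SE). Each KO library of E9.5 and E12.5 was thus at 3.04% of the WT mean or less. At E11.5 the KO libraries held 0.110, 1.45 and 0.222 RPKM, against 2.97, 3.51 and 3.29 RPKM in WT, and the log2 fold change was -2.44 ± 0.92. KO replicate 2 lay between the other KO libraries and WT, and without it the log2 fold change was -4.32 and the gene passed the threshold, which it did not with all 3. Rsl1, which shares the most sequence with it, went the other way in part, with 2.29, 1.83 and 1.95 RPKM in E9.5 KO against 1.78, 1.21 and 1.73 RPKM in E9.5 WT libraries.

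Zfp708 was higher in KO. It had 2.97, 3.93 and 3.87 RPKM in E9.5 KO against 2.47, 1.81 and 1.65 RPKM in E9.5 WT libraries (log2 fold change 0.85 ± 0.24). At E12.5 it had 5.17, 4.37 and 4.93 RPKM in KO against 3.03, 3.35 and 3.29 RPKM in WT (0.58 ± 0.13), and the groups did not overlap at either stage. At E11.5 it had 5.55, 3.90 and 4.85 RPKM in KO against 2.46, 3.97 and 2.56 RPKM in WT (0.67 ± 0.21), where KO replicate 2 lay just under WT replicate 2. The sum of the Zfp429 and Zfp708 fragments was 7.40, 9.51 and 9.61 counts scaled to library depth (CPM) in E9.5 KO against 8.77, 8.35 and 7.49 CPM in E9.5 WT libraries. The summed log2 fold change was 0.07 ± 0.19 at E9.5, -0.10 ± 0.15 at E11.5 and -0.35 ± 0.11 at E12.5, a sum chosen after the separate values were seen. Leaving out genes that overlap it, Zfp708 shared 50-base words only with Zfp85, Zfp273 and Zfp493, and so none with Zfp429.

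Zfp458 was lower in KO by a smaller amount. It had 0.815, 0.856 and 0.832 RPKM in E12.5 KO against 1.77, 1.57 and 1.92 RPKM in E12.5 WT libraries, with no overlap and a log2 fold change of -1.07 ± 0.18. At E9.5 it had 0.404, 0.430 and 0.518 RPKM in KO against 0.435, 0.802 and 0.874 RPKM in WT (-0.64 ± 0.38). At E11.5 it had 0.804, 1.18 and 1.02 RPKM in KO against 1.17, 1.65 and 1.45 RPKM in WT (-0.51 ± 0.23). At both of these stages 1 WT library lay within the range of the KO libraries. F630042J09Rik, a long noncoding RNA that follows Zfp458 in gene order, had 0.146, 0.188 and 0.165 RPKM in E11.5 KO against 0.549, 0.501 and 0.509 RPKM in E11.5 WT libraries. It fell there by 1.64 ± 0.33 on the log2 scale (edgeR adjusted p = 0.0411), and KO replicate 2 was the highest KO library, far below every WT library.

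Of the other Zfp and Rsl genes of chromosome 13, 34 were tested at E11.5, of which 2 rose, Zfp808 (log2 fold change 0.65 ± 0.13, edgeR adjusted p = 0.0359) and Zfp322a (0.39 ± 0.072, adjusted p = 0.0306), and none fell. Their median log2 fold change was 0.06, against -0.01 over all 14601 genes tested. None of the 33 tested at E9.5 or the 34 at E12.5 passed in edgeR, 2 and 3 of them had p under 0.05 before adjustment, and none was called by DESeq2. Cofactors of KRAB silencing, Trim28 among them, gave 13 tested genes with no edgeR call at any stage, 4 with an unadjusted p under 0.05 at E11.5 (3 called by DESeq2) and 2 at E12.5 (0 called), and medians of 0.02 at E9.5, 0.13 at E11.5 and 0.11 at E12.5.

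Gpr137b encodes a membrane protein of the lysosome with several membrane spans that acts on the Rag GTPases and through them on mTORC1, the growth kinase that senses amino acids. Gpr137b-ps is its neighbour in gene order and is annotated as a pseudogene. Over the 1155 coding bases of Gpr137b, the closest Gpr137b-ps transcript has 5 mismatches and 1 gap column, an identity of 99.5%. Of the 50-base words of their transcripts, 29.5% for Gpr137b-ps and 28.5% for Gpr137b also occur in another gene, nearly all in the partner. The stretch with the most differences, coding bases 795 to 894 of Gpr137b in GENCODE M21, is shown because it is all that could assign a read to either copy there: it differs at 2 of 100 bases, which are in capitals.
Gpr137b: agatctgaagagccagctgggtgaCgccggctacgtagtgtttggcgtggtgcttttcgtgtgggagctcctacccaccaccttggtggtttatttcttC
Gpr137b-ps: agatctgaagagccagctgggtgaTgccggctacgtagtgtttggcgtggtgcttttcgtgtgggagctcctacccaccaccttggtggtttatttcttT

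The copies differed between genotypes in opposite directions. Gpr137b-ps had 0.646, 0.496 and 0.575 RPKM in E9.5 KO against 2.88, 4.50 and 3.61 RPKM in E9.5 WT libraries, a log2 fold change of -2.67 ± 0.26. Gpr137b had 4.33, 4.44 and 4.97 RPKM in E9.5 KO against 2.77, 1.72 and 2.12 RPKM in E9.5 WT libraries, a log2 fold change of 1.04 ± 0.21. The groups did not overlap for either gene. At E11.5 Gpr137b-ps had 0.740, 2.94 and 0.754 RPKM in KO against 4.65, 3.02 and 5.01 RPKM in WT (-1.51 ± 0.62), and Gpr137b had 6.28, 4.21 and 6.53 RPKM in KO against 2.79, 3.78 and 2.24 RPKM in WT (0.95 ± 0.22). KO replicate 2 was the KO library nearest to WT for both, and WT replicate 2 the WT library nearest to KO for both. Without KO replicate 2, the log2 fold change of Gpr137b-ps was -2.50 and both genes passed the threshold, which neither did with all 3 libraries. At E12.5 Gpr137b-ps had 2.10, 2.39 and 2.29 RPKM in KO against 1.84, 3.13 and 3.55 RPKM in WT (-0.34 ± 0.24), and Gpr137b had 3.68, 3.34 and 3.16 RPKM in KO against 3.46, 2.04 and 1.77 RPKM in WT (0.49 ± 0.25). Both genes overlapped between the groups there, since WT replicate 1 had the lowest Gpr137b-ps and a Gpr137b level within the KO range.

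Summed over the copies, the genotypes stood close together. The sum was 15.1, 14.8 and 17.0 CPM in E9.5 KO against 16.6, 18.5 and 16.8 in E9.5 WT libraries, 21, 20.4 and 21.1 in E11.5 KO against 22.4, 20.7 and 21.3 in E11.5 WT, and 17.0, 16.9 and 16 in E12.5 KO against 15.7, 15.3 and 15.7 in E12.5 WT. The log2 fold change of the sum was -0.18 ± 0.13, 0.01 ± 0.095 and 0.11 ± 0.091 at the 3 stages. What differed was the share of Gpr137b-ps in the sum, at 9.92% to 12.8% in E9.5 KO against 50.6% to 72.1% in E9.5 WT libraries. At E11.5 the share was 10.4%, 40.8% and 10.2% in KO against 62.1%, 44.0% and 68.8% in WT. At E12.5 it was 36.0%, 41.3% and 41.6% in KO against 34.4%, 60.2% and 66.4% in WT. The exact 95% intervals of single libraries, which cover counting error only, were 38.1% to 43.6% for E11.5 KO replicate 2 and 8.77% to 12.2% for E11.5 KO replicate 1. Shares of 9.92% to 12.8% were found in KO libraries of E9.5 and E11.5, shares of 50.6% or more in WT libraries of the 3 stages, and shares of 34.4% to 44.0% in both genotypes. How the authors' counting divided reads between the copies was not tested.

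**Figure D2:**
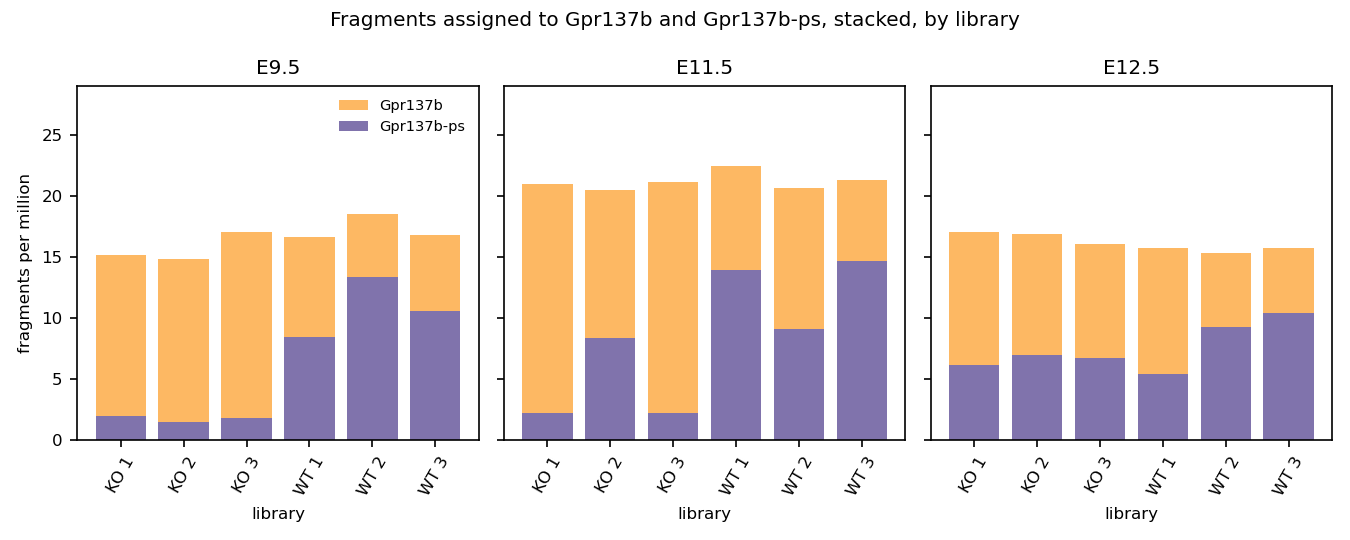
Fragments scaled to library depth (CPM) assigned to Gpr137b-ps (purple) and Gpr137b (orange), stacked (vertical axis, linear from 0), for each library (horizontal axis, KO left of WT) and stage. The summed height varies little within a stage, 20.4 to 22.4 at E11.5, while the purple part is small in all E9.5 KO libraries and in E11.5 KO replicates 1 and 3.

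Genes that work with Gpr137b did not pass the threshold in edgeR at any stage, and DESeq2 called Gpr137 and Lamtor5 at E11.5. Its relatives Gpr137 and Gpr137c had a median log2 fold change of -0.34 at E11.5, and the 15 genes of the Rag, Ragulator and mTORC1 list had one of 0.02, against -0.01 over all genes. Markers of macrophages and osteoclasts, cells that are rich in lysosomes, summed to 19.0 to 23.0 RPKM in E9.5 KO against 14.2 to 16.6 RPKM in E9.5 WT libraries and to 19.5 to 30.8 RPKM in E11.5 KO against 23.1 to 37.4 RPKM in E11.5 WT libraries. At E12.5 they summed to 30.0 to 37.2 RPKM in KO against 42.5 to 56.0 RPKM in WT, lower in KO with no overlap, where at E9.5 they were higher in KO with no overlap, and DESeq2 called Csf1r and Ctsk at E12.5. Their part in the level of Gpr137b was not tested. Ero1lb, an oxidase of the endoplasmic reticulum that precedes Gpr137b-ps in gene order, had log2 fold changes of -1.29 ± 0.37, -0.72 ± 0.28 and -0.63 ± 0.28 in stage order and did not pass.

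Gpx6 belongs to the glutathione peroxidases, which reduce peroxides with glutathione, and is known from the olfactory epithelium and the embryo. It was higher in KO at each stage, and WT had almost none at E11.5. At E11.5 it had 2.28, 2.08 and 3.15 RPKM in KO against 0.0223, 0.168 and 0.181 RPKM in WT, that is 156, 138 and 156 fragments against 1, 8 and 8. The log2 fold change was 4.31 ± 0.52, and the KO libraries, replicate 2 included, were at least at 1680.9% of the WT mean. At E12.5 it had 2.14, 1.24 and 0.942 RPKM in KO against 0.620, 0.233 and 0.246 RPKM in WT (2.0 ± 0.50). At E9.5 it had 2.18, 1.85 and 2.97 RPKM in KO against 1.33, 1.01 and 1.55 RPKM in WT (0.83 ± 0.36), and at no stage did the groups overlap. None of the other glutathione peroxidases passed at any stage among the 6 tested, with a median log2 fold change of 0.14 at E11.5, nor did any of 15 other genes of peroxide defence, with a median of 0.07. By unadjusted p under 0.05, 1 of the peroxidases and 4 of the other genes differed at E11.5, 3 and 3 at E12.5 and none at E9.5. DESeq2 called Gpx2 and the peroxiredoxins Prdx1, Prdx2 and Prdx4 at E11.5.

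Kif27 is a kinesin and a relative of Kif7, the kinesin of hedgehog signalling, and in mouse it is known for motile cilia together with Stk36. Every KO library was below every WT library of its stage. At E11.5 it had 0.682, 0.747 and 0.849 RPKM in KO against 1.53, 1.62 and 1.55 RPKM in WT (log2 fold change -1.05 ± 0.18). At E12.5 it had 0.570, 0.462 and 0.447 RPKM in KO against 1.37, 1.15 and 0.942 RPKM in WT (-1.23 ± 0.23), and at E9.5 0.30, 0.434 and 0.385 RPKM in KO against 0.644, 0.640 and 0.575 RPKM in WT (-0.74 ± 0.32). Over the 9 KO libraries, its level was between 38.7% and 70.0% of the WT mean of the stage, and E11.5 KO replicate 2, at 47.7%, lay between the other KO libraries. None of 14 genes of hedgehog kinesin and Gli function and none of the genes of motile cilia (5, 6 and 5 tested in stage order) passed in edgeR, with medians at E11.5 of -0.01 and -0.17. Before adjustment, p was under 0.05 for 1 and 1 of them at E11.5 and for 2 and 1 at E12.5, and DESeq2 called 1 of them, Gli1 at E12.5.

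Fbp2 encodes the muscle form of fructose-1,6-bisphosphatase, an enzyme of glucose synthesis. It was lower in KO at the later stages, with 0.231, 0.517 and 0.381 RPKM in E12.5 KO against 1.59, 1.23 and 1.56 RPKM in E12.5 WT libraries (log2 fold change -1.92 ± 0.36). At E11.5 it had 5, 10 and 5 fragments in KO against 16, 17 and 19 fragments in WT (-1.79 ± 0.54), and the groups overlapped at neither stage. At E9.5 it had 9, 32 and 9 fragments in KO against 0, 14 and 35 in WT, with wide overlap and no settled sign (0.53 ± 1.20). Muscle markers moved with it: at E11.5 all 22 tested were lower in KO, of which 4 fell, Myl1, Pax7, Tnni1 and Cdh15, with a median log2 fold change of -2.59. At E12.5, 24 of 25 were lower and none passed in edgeR (11 before adjustment, and 3 in DESeq2), with a median of -0.93 and a summed level of 513.7 to 1165.1 RPKM in KO against 999.8 to 1592.6 RPKM in WT. Myl1, a myosin light chain, fell by 3.22 ± 0.65 on the log2 scale at E11.5 (edgeR adjusted p = 0.0466), and the part of muscle content in the Fbp2 level was not tested. The 11 other enzymes of fructose bisphosphate and hexose metabolism tested gave no edgeR call at any stage, and all 11 were lower at E11.5 with a median of -0.16, 2 of them at an unadjusted p under 0.05 (3 at E12.5), while DESeq2 called 1, Aldoc, at E12.5. Fbp1, the liver form and the next gene in order, had -0.40 ± 0.47 at E11.5.

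Amph encodes amphiphysin, a membrane-bending protein of clathrin-mediated endocytosis that is best known at synapses. It was far higher in the E9.5 tissue, which includes trunk, than later, and lower in KO. At E9.5 it had 1.53, 1.46 and 0.815 RPKM in KO against 4.72, 3.42 and 6.93 RPKM in WT (log2 fold change -1.98 ± 0.32). At E12.5 it had 0.430, 0.363 and 0.563 RPKM in KO against 0.60, 0.699 and 1.0 RPKM in WT (-0.77 ± 0.31), and the groups did not overlap at either stage. At E11.5 it had 0.241, 0.301 and 0.148 RPKM in KO against 0.258, 0.867 and 0.999 RPKM in WT (-1.61 ± 0.50), with WT replicate 1 inside the KO range. Markers of neurons summed to 39.6 to 58.3 RPKM in E9.5 KO against 40.5 to 53.3 RPKM in E9.5 WT libraries, which overlapped. They also overlapped at E11.5, with 52.1 to 70.5 RPKM in KO against 54.2 to 58.4 RPKM in WT, while at E12.5 they were lower in KO with no overlap, at 47.2 to 54.8 RPKM against 58.4 to 67.6 RPKM in WT, and DESeq2 called Nefl and Nefm. Their part in the Amph level was not tested. None of 20 other genes of membrane bending and clathrin endocytosis passed in edgeR or DESeq2 at any stage, with medians of -0.03, -0.12 and -0.05 and at most 2 genes at an unadjusted p under 0.05.

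The levels also changed with the stage, and a contrast between stages that averages KO and WT is balanced over genotype. It is still not free of the choice of genes where a group lay near 0, as for Zfp429 in KO and Gpx6 in E11.5 WT. For these genes the adjusted p is given as a description. From the fits of 12 libraries each, 7 of the 9 genes passed for E11.5 against E9.5, where 65.3% of all genes did (33.2% higher and 32.1% lower), and 3 of 9 for E12.5 against E11.5, where 54.2% did (27.1% higher and 27.1% lower). Neither count stands out from the share over all genes. The E9.5 tissue holds trunk, so that tissue and stage cannot be told apart in the earlier step. At E11.5 against E9.5, Kif27 rose by 1.11 ± 0.16 on the log2 scale (edgeR adjusted p = 2.38e-05), Zfp458 by 1.02 ± 0.21 (adjusted p = 0.000736) and Zfp429 by 2.77 ± 0.74 (adjusted p = 0.00602). The Zfp429 value took in KO libraries near 0 and ran between 1.83 without E11.5 KO replicate 2 and 4.61 without E9.5 KO replicate 1. In WT alone its mean log2 CPM was 1.88 ± 0.23, 2.68 ± 0.12 and 2.79 ± 0.16 (SD, n = 3 each) in stage order.

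Amph fell by 2.71 ± 0.33 on the log2 scale at E11.5 against E9.5 (edgeR adjusted p = 1.1e-05), the largest stage change of the 9 after Zfp429, and Gpx6 fell by 1.70 ± 0.33 (adjusted p = 0.000385). The Gpx6 fall lay in WT, where mean log2 CPM was 0.67 ± 0.30 at E9.5 and -2.48 ± 0.91 at E11.5. In KO it was 1.48 ± 0.34 and 1.51 ± 0.30 (SD, n = 3 each), so the averaged value describes neither genotype. Zfp708 rose by 0.43 ± 0.17 (adjusted p = 0.0336) and Fbp2 fell by 1.88 ± 0.71 (adjusted p = 0.0298). Each of these last calls was lost without any 1 of 6 libraries: for Zfp708 the E9.5 WT replicates 2 and 3, E9.5 KO replicate 1, E11.5 WT replicate 2 and E11.5 KO replicates 1 and 3 (0.31 to 0.43), and for Fbp2 the E9.5 WT replicate 3, E9.5 KO replicate 2, E11.5 WT replicates 1 and 2 and E11.5 KO replicates 1 and 3 (-1.30 to -1.86). Gpr137b-ps (0.72 ± 0.34, adjusted p = 0.0825) and Gpr137b (0.29 ± 0.16, adjusted p = 0.132) did not pass. At E12.5 against E11.5, Fbp2 rose by 1.83 ± 0.30 (edgeR adjusted p = 0.000247), as did 24 of 25 muscle markers. At E11.5 against E9.5, where Fbp2 fell, 12 of 23 muscle markers tested rose and 5 fell, with a median log2 fold change of 1.34. Kif27 fell by 0.61 ± 0.13 (adjusted p = 0.00206) and Gpr137b by 0.59 ± 0.18 (adjusted p = 0.0166). Zfp429 (-1.47 ± 0.58, adjusted p = 0.0523), Amph (0.47 ± 0.31), Gpx6 (0.28 ± 0.38), Gpr137b-ps (-0.06 ± 0.34), Zfp458 (-0.05 ± 0.14) and Zfp708 (-0.01 ± 0.14) did not pass. Without E11.5 KO replicate 2 the Zfp429 value was -0.53, and it passed the threshold without E11.5 KO replicate 1 or 3 (-1.72 and -1.66).

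In gene order, the 9 genes lay on both sides of Pitx1 and mostly far from it. Among the 552 genes of chromosome 13 tested at E11.5, Pitx1 was at place 273. Gpr137b-ps and Gpr137b were at places 29 and 30, Amph at 50 and Gpx6 at 55, with 217 to 243 tested genes between each of them and Pitx1. Kif27 was the nearest, at place 287 with 13 genes between, followed by Fbp2 at 310, Zfp708 at 332, Zfp458 at 337 and Zfp429 at 343. E11.5 KO replicate 2 was the KO library of its stage nearest to WT for all of the 9 genes but Kif27. This count was not made over all genes, and nothing is read from it. For Kif27 the library lay between the other KO libraries. It stood at 1680.9% of the WT mean for Gpx6, against 1844.4% and 2539.9%, and at 42.5% for Amph, against 34.0% and 20.9%. For Fbp2 it stood at 39.5%, against 19.2% and 26.4%, on 10 against 5 and 5 fragments.

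**Figure D3:**
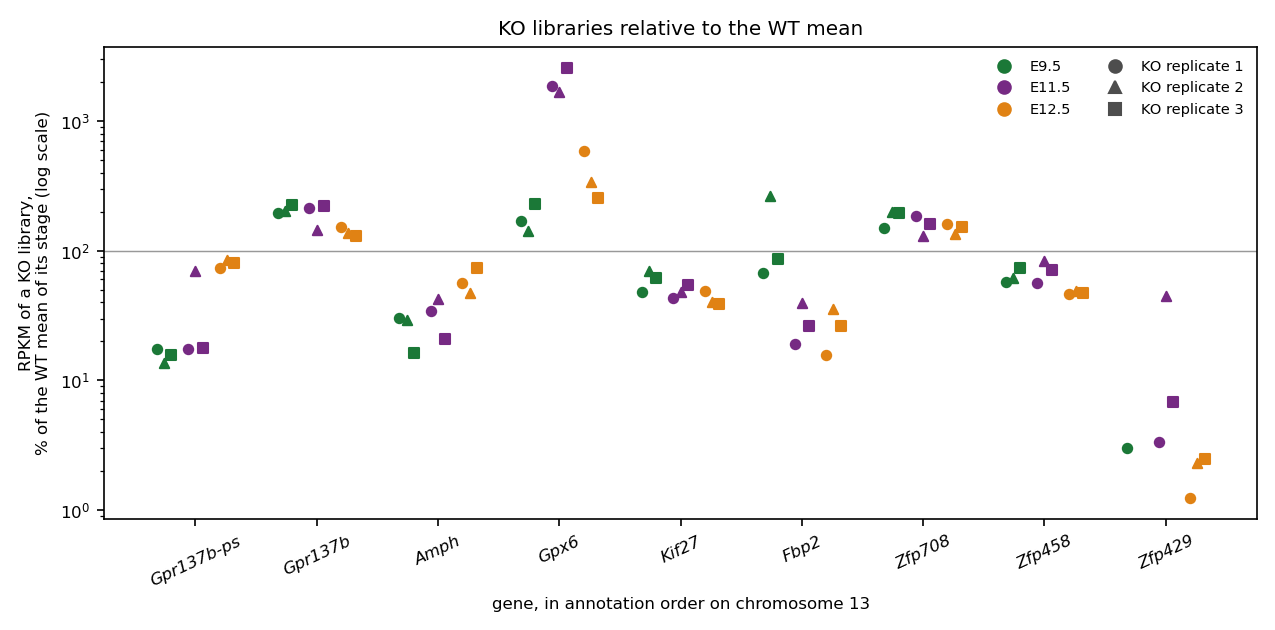
RPKM of each KO library as a percentage of the WT mean of its stage (vertical axis, log scale) for the 9 genes in annotation order on chromosome 13 (horizontal axis), coloured by stage and shaped by replicate. The 2 E9.5 KO libraries with no Zfp429 fragment are not drawn. The purple triangle, E11.5 KO replicate 2, stands well above the other E11.5 KO libraries for Gpr137b-ps (69.7%) and Zfp429 (44.5%) and among them for Kif27 (47.7%).

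Few of the genes next to the 9 passed the threshold, which only 3 of 13804 genes passed at E9.5 and 2 of 14494 at E12.5. The nearest tested gene on each side gave 16 neighbours outside the 9, of which none passed in edgeR at E9.5 or E12.5 and 1, F630042J09Rik, passed at E11.5. Before adjustment, p was under 0.05 for 3, 5 and 5 of the 16 in stage order. On the other chromosomes this held for 502 of 13223, 3089 of 13972 and 2073 of 13887 genes, a lower share than among the 16 at each stage. DESeq2 called none of the 16 at E9.5, 3 at E11.5 (2210016F16Rik, F630042J09Rik and Nid1) and 1 at E12.5. Without F630042J09Rik and Ero1lb, the neighbours with the most distant values were Zfp459, beside Zfp429, at -0.83 ± 0.33 on the log2 scale at E11.5 and -0.86 ± 0.25 at E12.5, and Fbp1, beside Fbp2, at -0.88 ± 0.37 at E12.5. Gkap1 and 2210016F16Rik on either side of Kif27 had 0.02 ± 0.14 and 0.35 ± 0.091 at E11.5. Trim27 and Zscan12 on either side of Gpx6 had -0.02 ± 0.11 and 0.15 ± 0.085, and Vps41 and Stard3nl on either side of Amph had 0.14 ± 0.079 and 0.17 ± 0.11. Of the genes listed as neighbours of Pitx1 itself, 10, 11 and 10 were tested in stage order and none passed in edgeR, while DESeq2 called 1, 1 and 2, Cxcl14, Tgfbi, and Tgfbi with Fbxl21.

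**Figure D4:**
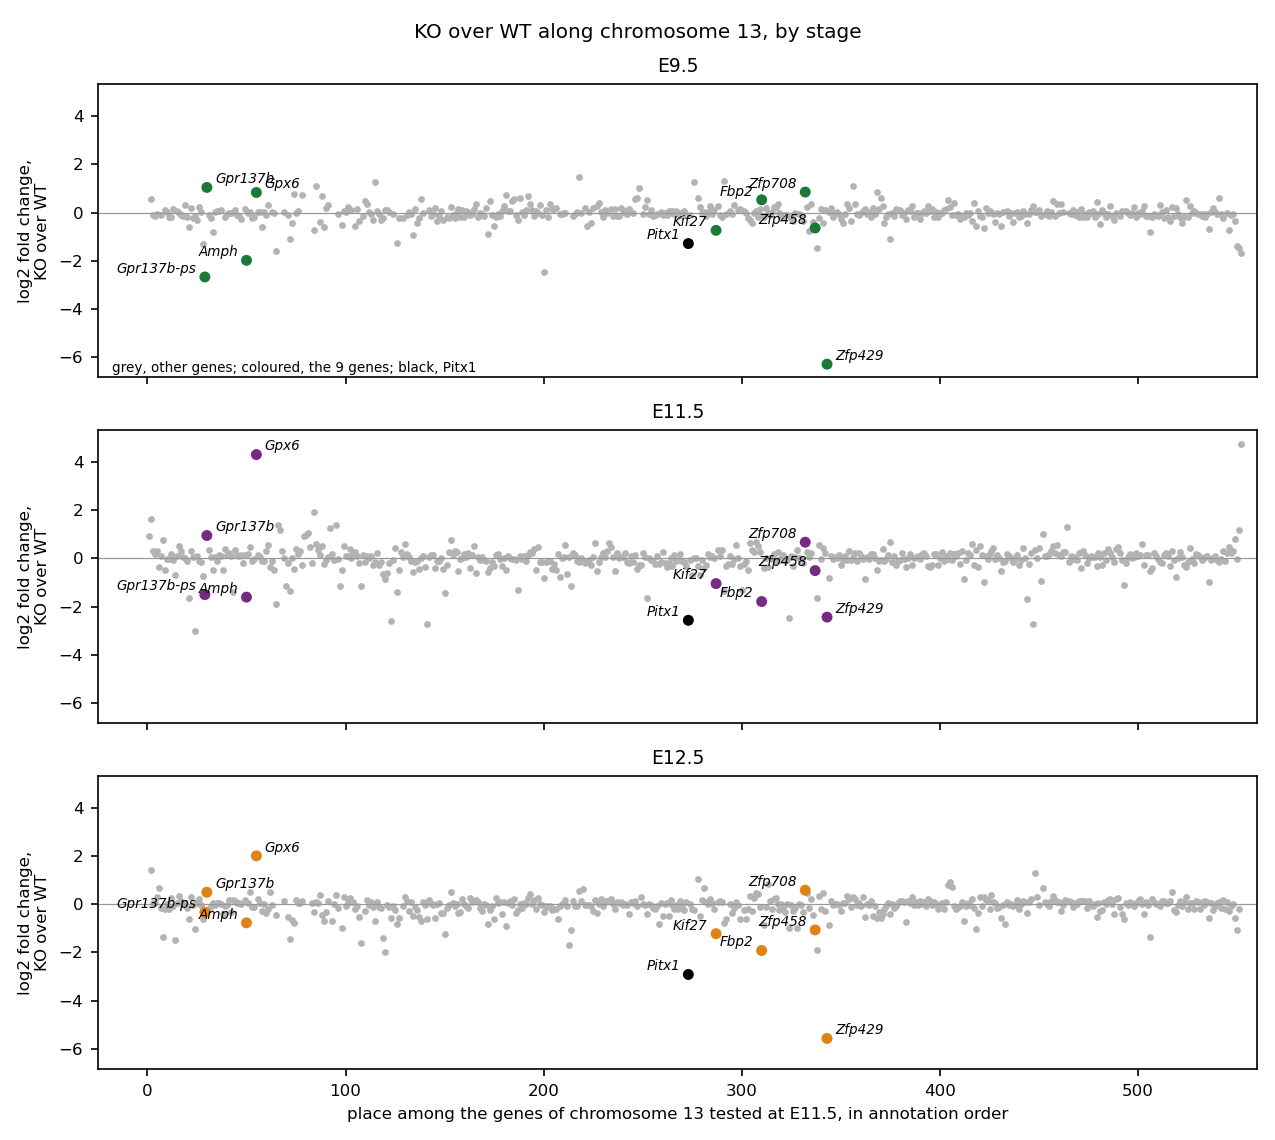
Fitted log2 fold change of KO over WT (vertical axis) for the genes of chromosome 13 tested at E11.5 in annotation order (horizontal axis, place), with 1 panel for each stage. Grey points are other genes, coloured points the 9 genes and the black point Pitx1. Most genes lie near 0, and the coloured genes lie on both sides of Pitx1 and on both sides of 0.

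The calls on chromosome 13 were set beside those on the other chromosomes. The E9.5 genes that passed numbered 3, Pitx1, Zfp429 and Gpr137b-ps, all among the 508 tested on chromosome 13, and none of 13223 on the other chromosomes passed in edgeR, of which p was under 0.05 before adjustment for 502, with 11 called by DESeq2. Without Pitx1 and the 9 genes, 0 of 498 passed on chromosome 13 at E9.5, the same share as elsewhere. At E11.5, 25 of 552 passed (4.53%), or 22 of 542 (4.06%) without the 9 genes and Pitx1, against 259 of 13972 (1.85%) on the other chromosomes, which ranged between 1.10% and 2.62%. At E12.5, 1 of 534 passed on chromosome 13 and 1 of 13887 elsewhere. The E11.5 share without the 9 genes and Pitx1 was the highest of 20 chromosomes with all libraries but not under each alternative. Without E11.5 KO replicate 2 it was 0.906%, against 0.879% elsewhere, and with DESeq2 it was 9.59%, against 8.93%. With a replicate block it was 0.554%, against 0.68%, while with no filter it was 4.47%, against 2.81%. It was 0 without E11.5 KO replicate 3, E11.5 WT replicate 1 or E11.5 WT replicate 2, where few genes passed elsewhere too (0.0915%, 0.0493% and 0.514%). Genes that differed more than 2-fold, whatever their p, made up 3.82%, 6.09% and 3.44% of chromosome 13 in stage order without the 9 genes and Pitx1, against 0.615% to 2.56%, 2.14% to 5.08% and 2.25% to 5.67% on the other chromosomes. At E11.5 they included several histone genes of the Hist1 cluster, among them Hist1h2bm (-1.91 on the log2 scale), Hist1h4i (-1.37), Hist1h2ae (1.94) and Hist1h4k (1.40). Other Hist1 genes lay within 2-fold, and the share without this cluster was not computed.

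**Figure D5:**
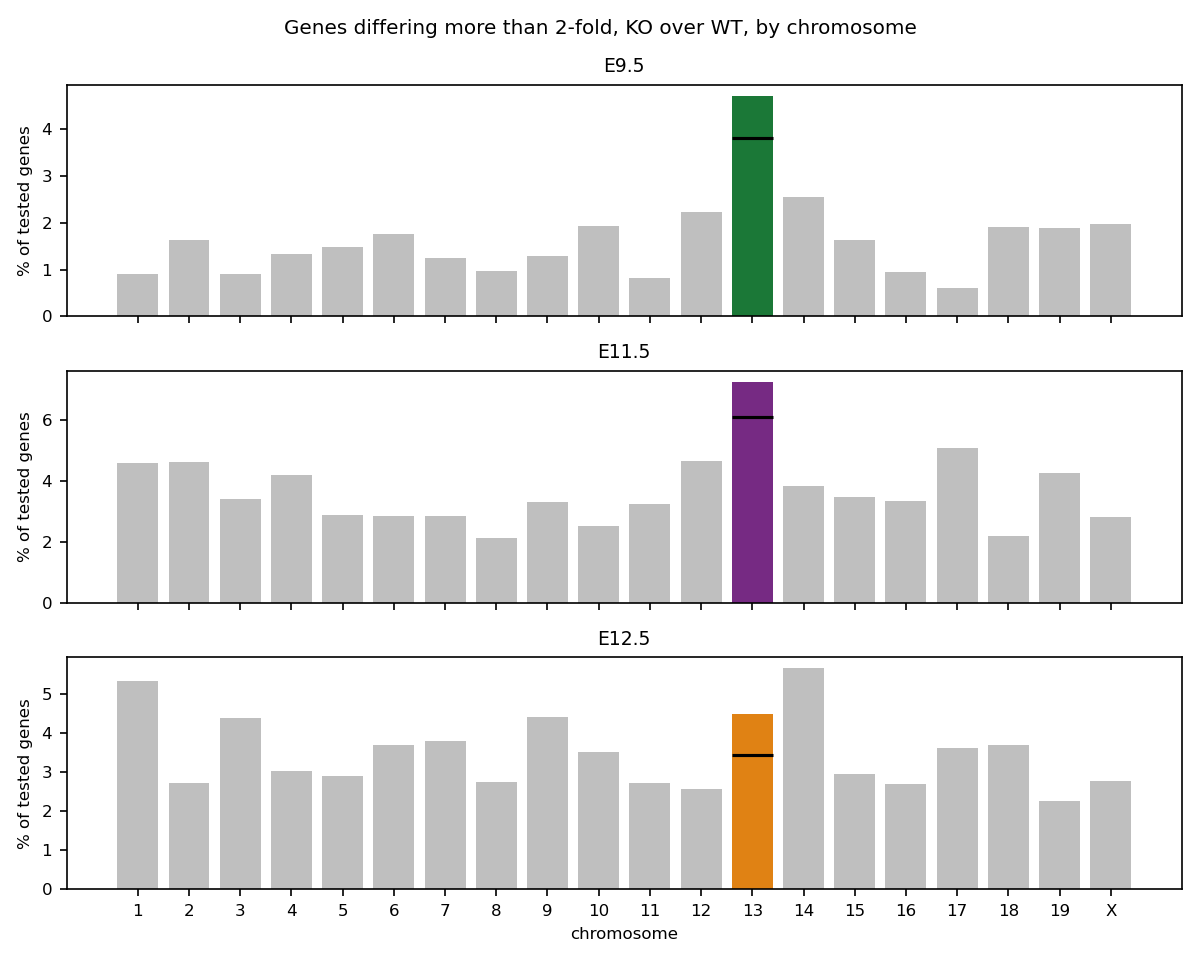
Share of tested genes with a fitted log2 fold change of KO over WT beyond 1 in either direction (vertical axis, percent from 0) for each chromosome (horizontal axis) and stage. Chromosome 13 is coloured, and its black line marks the share without the 9 genes and Pitx1, which is 3.82% at E9.5, 6.09% at E11.5 and 3.44% at E12.5.

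The 22 further genes of chromosome 13 that passed at E11.5 divided into 12 that rose and 10 that fell. Among the 10 with the largest change, Fgfr4, a fibroblast growth factor receptor known from muscle precursors, had 0.895 ± 0.331 RPKM in KO and 2.81 ± 0.764 RPKM in WT (SD, n = 3 each) and fell by 1.64 ± 0.30 on the log2 scale (edgeR adjusted p = 0.0315). Rbm24 and Mef2c, regulators of muscle differentiation, fell by 1.33 ± 0.25 and 0.87 ± 0.17. Foxc1, a forkhead factor of mesenchyme, fell by 0.59 ± 0.10, with 5.50 ± 0.567 RPKM in KO and 8.28 ± 0.483 RPKM in WT. Eci3, an enzyme of fatty acid oxidation, fell by 2.73 ± 0.53, Crhbp, the binding protein of corticotropin-releasing hormone, by 2.70 ± 0.51, and Ntrk2, a neurotrophin receptor, by 1.37 ± 0.25. Cenpk, a centromere protein, rose by 0.60 ± 0.13, to 41.3 ± 7.31 RPKM in KO against 27.2 ± 1.46 RPKM in WT. F630042J09Rik and Zfp808 complete the 10.

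Across the 18 libraries, with each stage centred on its mean, several of the 9 genes followed each other, as genes that were all chosen for a genotype difference must in part. Pearson's r of log2 CPM was -0.92 for Gpr137b-ps with Gpr137b, -0.89 for Zfp429 with Zfp708 and 0.87 for Zfp708 with Gpr137b, while Fbp2 had 0.26 with Zfp429 and 0.08 with Gpr137b-ps. Genotype was not centred, so any gene that differed between KO and WT, Pitx1 among them, must in part follow or oppose the 9 genes too. Among 15448 genes, the likest to Kif27 were Pitx1 (r = 0.946) and F630042J09Rik (0.921), and the likest to Gpr137b-ps were its neighbour Ero1lb (0.876) and Chp1 (0.859). Gpx6 was followed most closely by Ndc80 (0.941) and Zfp934 (0.924), Fbp2 by Dlgap1 (0.957) and Il4ra (0.897), and Amph by Sgce (0.868) and Dusp3 (0.835). Zfp429 had Gm7244 (0.891) and F630042J09Rik (0.868), Zfp458 had Zim1 (0.862) and Adamts19 (0.847), Zfp708 had Gpr137b (0.875) and Ccng2 (0.873), and Gpr137b had Zfp708 (0.875) and Ercc6l2 (0.868). All of these points share the same libraries and depth.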

How the data were processed

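The tools named in the submitters' processing notes are TopHat2, Cuffdiff and FastQC, with the build mm9; for versions, annotation, strand setting and reads shared between genes the answer is not given in the sources used here. The authors deposited 1 table per stage. Per the file headers, it holds RPKM values, raw fragments (estimated counts, not always whole) and scaled fragments (a signal, used in no test). Tables were normalized separately, so RPKM was compared only within a stage, and log2 CPM values were used across stages. Replicates, numbered from 0 in the deposited tables, were taken in order as 1 to 3. Of 23929 genes listed, 2 date names that stand for 2 genes each and 6 genes with a failed estimate listed at 0 were left out. Fragments were rounded (1.79% were not whole, with a tolerance of 1e-06) and fitted with edgeR 4.0.16 in R 4.3.3 (TMM, filterByExpr, robust quasi-likelihood test), with p adjusted by Benjamini-Hochberg across every gene tested and a threshold of 0.05. SE were derived from the F statistic. The tests were tried on simulated data. Alternatives were another scaling, no filter, no robust step, a replicate block, DESeq2 1.42.0, limma 3.58.1 on log2(RPKM + 1) and log2(RPKM + 0.1), and each library left out. Gpr137b was also summed with Gpr137b-ps, and Zfp429 with Zfp708.

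Chromosomes and gene order came from RefSeq GRCm38.p6 by symbol (99.3% of the genes matched). Its build differs from mm9, so no distances are given. Shared 50-base words were counted in GENCODE M21 transcripts. The 9 genes and all lists were chosen with earlier results of these data known. Genes named are the 9, Pitx1, the nearest tested gene on each side of each, the 10 further chromosome 13 genes past the threshold with the largest change, up to 4 genes of a list that passed, and the 2 likest genes of each by correlation. Other genes named (Rsl1, Zfp456 and genes overlapping or related to the 9) were added after their values were seen.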

Additional observations from a re-analysis of the deposited data

Results flagged for a closer look

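Among the further genes of chromosome 13 named above, 2 had KO libraries above all WT libraries at E9.5 and below all WT libraries at a later stage; the difference between stages was not tested. Ntrk2 had a log2 fold change of 1.31 ± 0.48 (SE) at E9.5, with 1.14, 0.937 and 1.41 RPKM in KO against 0.503, 0.725 and 0.151 RPKM in WT, and of -1.37 ± 0.25 at E11.5 and -0.79 ± 0.29 at E12.5. Fgfr4 had a log2 fold change of 0.53 ± 0.25 at E9.5, with 1.89 ± 0.236 RPKM in KO and 1.31 ± 0.259 RPKM in WT (SD, n = 3 each), and of -1.64 ± 0.30 at E11.5. The E9.5 tissue includes trunk.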

How the results depend on the processing

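Among single values for the 9 genes, 327 of 363 KO against WT values under alternatives kept their direction and stayed within the spread of the libraries, 35 moved and 1 reversed, Zfp429 at E9.5 when summed with Zfp708 (0.072 on the log2 scale, a sum added after seeing the data). The moved values were mostly the smaller ones of limma on log2(RPKM + 1), the summed pairs and those without E11.5 KO replicate 2. Between stages, 272 of 304 values kept direction and call, 14 lost and 8 gained the call and 10 reversed. The reversals came from leaving out 1 library at E12.5 against E11.5, where the ranges were -0.078 to 0.118 for Zfp708, -0.122 to 0.015 for Zfp458, -0.219 to 0.439 for Gpr137b-ps and -0.005 to 0.452 for Gpx6.

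Counts of called genes depended on the tool. At E9.5, 3 genes passed, against 0 with the replicate block and 19 with DESeq2, and on chromosome 13 there were 3, 0 and 8. At E11.5, 286 passed, against 525 with no filter, 100 with the block, 1312 with DESeq2 and 149 with limma on log2(RPKM + 1), and on chromosome 13 there were 25, against 5 with the block, 58 with DESeq2 and 12 with that limma fit. At E12.5, 2 passed, against 5 with no filter, 386 with the block, 441 with DESeq2, and 4 and 5 with limma at pseudocounts of 1 and 0.1, and on chromosome 13 there was 1, against 22 and 30 with the block and DESeq2. Leaving out 1 library gave 0 to 2 genes at E9.5, 9 to 643 at E11.5 and 1 to 15 at E12.5, of which 0 to 1, 1 to 34 and 1 to 3 were on chromosome 13. The cause of these shifts was not tested. Whether the replicate numbers pair the libraries was not settled. KO and WT libraries with the same number had correlations of their deviations between -0.392 and 0.234. Those with different numbers had correlations between -0.360 and 0.463. At E12.5 the same-number values were 0.17, -0.03 and 0.23, against -0.22 to 0.05 for different numbers. With 3 libraries a group and under 20 fragments of Fbp2 or Gpx6 in several, depth limits what can be seen of the low genes.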
